A study of Mus musculus with 12 samples.

Results

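Acetylcholine acts in the hippocampus through 2 receptor families and is removed by acetylcholinesterase. The genes described here are the 8 chosen by name for this system: the nicotinic receptor subunits Chrna7, Chrna4 and Chrnb2, the muscarinic receptors Chrm1, Chrm2, Chrm3 and Chrm4, and the esterase gene Ache. They are 8 of the 48709 gene IDs in each deposited count file, matched by symbol to Ensembl IDs, and all 8 passed the filter on low counts that kept 16829 genes. RNA came from microdissected CA1 tissue of the mouse hippocampus, from 6 mouse libraries of the myocardial infarction group (MI, a ligated coronary artery) and 6 of the Sham group (operated without the ligation). The sources used here do not give the strain, age, sex or time after surgery, nor do they say that each library is a separate animal, so p-values cover only how much these libraries vary. The series title joins heart failure with memory and gene expression, and MI against Sham is the comparison of the study.

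Nicotinic receptors are ion channels built of 5 subunits that open when acetylcholine binds. Chrna7 subunits form channels by themselves, with high calcium permeability, whereas Chrna4 and Chrnb2 combine into the common high-affinity nicotinic receptor of the brain. Muscarinic receptors are single proteins coupled to G proteins: Chrm1 and Chrm3 work through Gq and phospholipase C, and Chrm2 and Chrm4 through Gi/o, which lowers cyclic AMP. Most acetylcholine in the hippocampus comes from axons of cell bodies that lie in the medial septum, so tissue of CA1 holds the receptors of its own cells, while much of the presynaptic machinery is made elsewhere.

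RefSeq promoter windows (GRCm38.p6, 250 bases before to 50 after a RefSeq start of the gene) were found for 7 of the 8 genes, all but Chrm1. Those shown are of Ache, which had the smallest p of the 8 genes, and of Chrna4 and Chrna7, the genes of this set in the authors' deposited tables. None of these genes was called in MI against Sham from the counts (edgeR adjusted p 0.597, 0.906 and 0.986 in this order). The windows are written 5′ to 3′ on the strand of the gene, and capitals mark the GC box GGGCGG on either strand.
Ache: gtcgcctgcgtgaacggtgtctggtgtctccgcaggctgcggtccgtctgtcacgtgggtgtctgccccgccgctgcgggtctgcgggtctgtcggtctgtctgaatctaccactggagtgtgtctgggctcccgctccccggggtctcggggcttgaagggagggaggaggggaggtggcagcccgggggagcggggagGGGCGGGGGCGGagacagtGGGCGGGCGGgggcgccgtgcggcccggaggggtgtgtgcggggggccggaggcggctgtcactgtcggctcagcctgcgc
Chrna4: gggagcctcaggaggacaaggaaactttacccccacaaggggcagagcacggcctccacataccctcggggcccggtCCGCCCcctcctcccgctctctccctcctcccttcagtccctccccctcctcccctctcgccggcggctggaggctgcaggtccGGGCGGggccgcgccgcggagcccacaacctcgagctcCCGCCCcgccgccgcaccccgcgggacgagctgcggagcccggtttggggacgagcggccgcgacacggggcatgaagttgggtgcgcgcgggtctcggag
Chrna7: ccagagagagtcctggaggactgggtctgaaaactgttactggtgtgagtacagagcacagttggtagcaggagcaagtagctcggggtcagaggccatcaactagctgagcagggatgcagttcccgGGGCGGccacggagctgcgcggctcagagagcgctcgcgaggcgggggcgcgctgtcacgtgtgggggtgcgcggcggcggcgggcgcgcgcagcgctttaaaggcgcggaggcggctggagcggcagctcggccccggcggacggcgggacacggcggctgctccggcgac
The Ache window is chr5:137288004-137288303 on the plus strand, the Chrna4 window chr2:181039128-181039427 on the minus strand and the Chrna7 window chr7:63212477-63212776 on the minus strand. Their G and C content was 74.0%, 74.3% and 70.0%, where the median of 32851 windows of the same length was 52.7%. A GC box was present in 6 of the 7 windows, all but that of Chrm3, and in 35.7% of all windows. The Ache window held 4 GC boxes, that of Chrna4 held 3 and that of Chrna7 held 1. The letters GCGNGGGCG, a site of the EGR factors, were found on either strand in the windows of Ache (2 matches) and Chrna7 (1 match) and in 5.6% of all windows, and they can overlap a GC box. The E-box letters CANNTG stood in 5 of the 7 windows and in 72.3% of all, and TATAAA in 0 of the 7 and in 13.6% of all. The last 30 bases of the window lay in a GENCODE transcript of the gene for 5 of the 7, the exceptions being Ache and Chrm4. The windows of Ache and Chrna4 lie inside the spans that GENCODE gives these genes, downstream of the outermost GENCODE start.

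Library totals ran from 20764133 to 35643127 counts, and levels are given as CPM, counts scaled to a common library size after TMM correction. The label CA1 was checked against markers. The CA1 pyramidal genes Wfs1 and Fibcd1 averaged 239.0 and 230.7 CPM in MI and 220.5 and 215.7 CPM in Sham. The summed CPM of 8 CA1 pyramidal markers ran from 1311 to 1653 in MI and from 884.3 to 1938 in Sham. Markers of tissue next to CA1 varied more among Sham libraries than among MI libraries for several lists: 8 dentate granule markers summed to 80.6 to 334.4 CPM in MI and 109.0 to 821.8 CPM in Sham, and 8 neocortex markers to 196.5 to 306.7 CPM in MI and 144.3 to 376.2 CPM in Sham. Sham 1 stood lowest in CA1 markers and highest in meningeal fibroblast and neocortex markers, Sham 5 highest in CA1 and lowest in neocortex markers, and Sham 6 highest in dentate and lowest in interneuron markers. In bulk tissue, fewer cells of a type and less RNA per cell cannot be told apart.

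Of the 8 genes, Ache had the clearest difference between MI and Sham, and it was not called. Ache was 1.21-fold higher in MI (95% interval 1.05 to 1.38), while the estimates for the 7 receptor genes lay between 0.986-fold and 1.16-fold with intervals that all held 1. No gene of the 8 passed an adjusted p under 0.05 (0 of 8), nor did any of the 16829 genes tested (0%), by edgeR's quasi-likelihood F test (Benjamini-Hochberg over all genes tested). At an unadjusted p under 0.05 there was 1 of the 8, Ache, where 7.55% of all genes tested had one (1270 genes), and DESeq2 called 0 of the 8 and 11 genes in all (0.0644%). Without adjustment DESeq2 also gave Ache alone of the 8 a p under 0.05 (0.0048), and 4.59% of its genes. DESeq2 was run without the filter on low counts, so the 4.59% is of 32330 genes and the 0.0644% of 17074. Neither share compares directly with the 7.55%. In 0 of the 8 genes did the MI and Sham ranges fail to overlap, as they did in 0.41% of all genes tested. The log2 fold change was positive in 7 of the 8 and in 8011 of the 16829 genes tested. Its median was 0.08 over the 8, with -0.01 over all genes tested. Without regard to sign the median was 0.0762 over the 8 and 0.0734 over all genes tested.

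**Figure D1:**
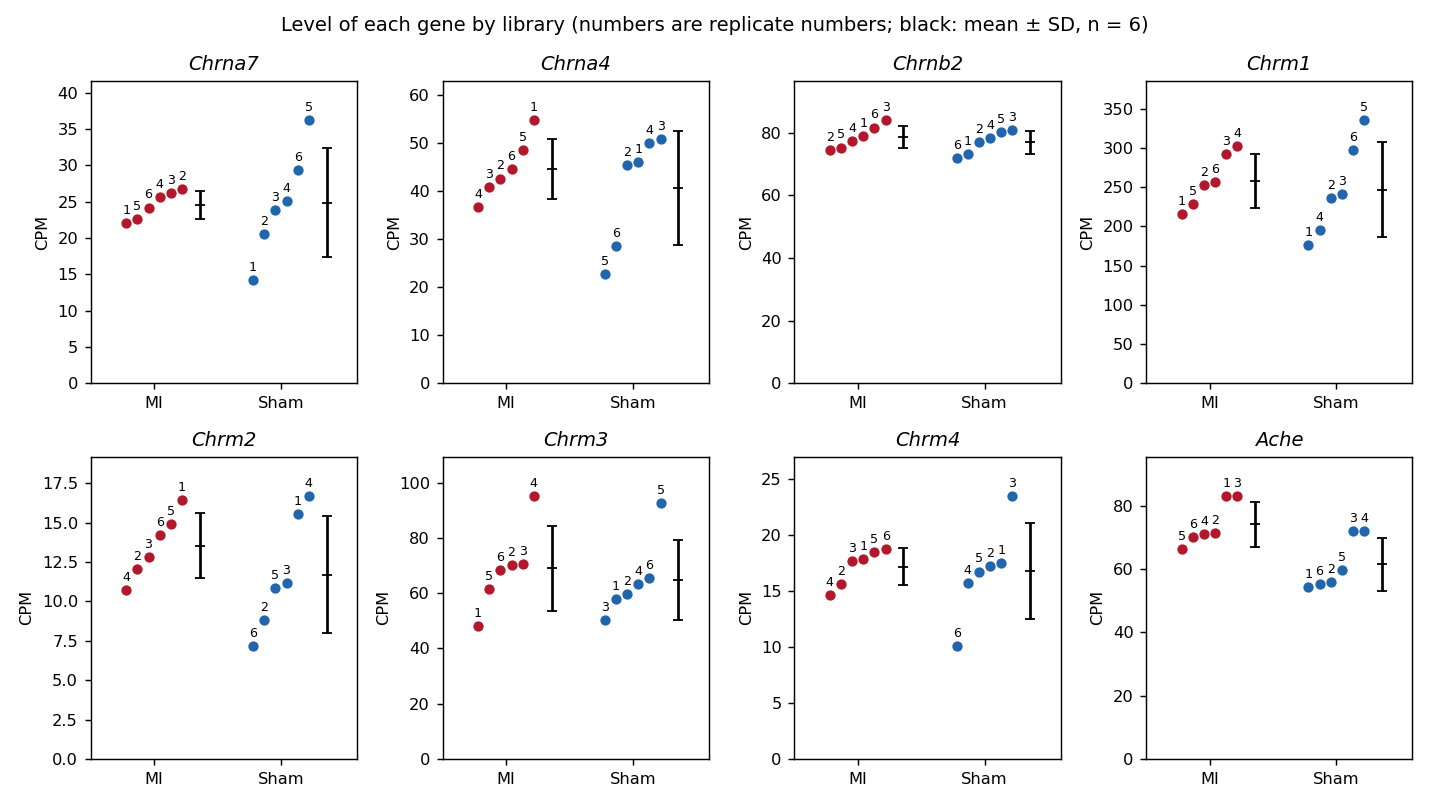
CPM of each gene (vertical axes, from 0) in the 6 MI libraries (red) and the 6 Sham libraries (blue), with replicate numbers at the points and the mean ± SD in black. Sham libraries spread more widely than MI libraries for Chrna7, Chrna4 and Chrm4, Chrnb2 hardly varied at all, and the 4 lowest Ache values belonged to Sham.

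Ache (ENSMUSG00000023328, chromosome 5, 137287519 to 137294466, plus strand, mm10) encodes the enzyme that splits acetylcholine at the synapse. It had 66.2 CPM at the lowest, 71.2 at the median and 83.0 at the highest in MI, against 54.2, 57.7 and 72.0 CPM in Sham. Every MI library exceeded the Sham median, 4 Sham libraries (1, 2, 5 and 6) lay below every MI library, and Sham 3 and Sham 4 lay within the MI range. The means were 74.1 ± 7.07 CPM in MI and 61.5 ± 8.37 CPM in Sham (SD, n = 6 each). The log2 fold change was 0.27 (SE 0.09), with an edgeR p of 0.00833 and an adjusted p of 0.597. Its p stood at place 225 of the 16829 genes. Of 27 alternative fits all gave a positive value, from 0.16 to 0.38, with adjusted p from 0.186 to 0.999 in edgeR, DESeq2 or limma-voom. Without Sham 1 and Sham 6, the libraries that stood apart in meningeal and dentate markers, the value was 0.19 (edgeR p 0.0545, adjusted p 0.743). Of the exon bases of Ache, 2.1% are shared with Gm42456, a noncoding gene on the opposite strand with 18 to 28 counts a library.

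The nicotinic subunit Chrna7 (ENSMUSG00000030525, chromosome 7, 63098692 to 63212569, minus strand) had nearly the same level in both groups but a far wider spread in Sham. It had 22.1 CPM at the lowest, 24.9 at the median and 26.7 at the highest in MI, against 14.2, 24.5 and 36.2 CPM in Sham. Sham 1 was the lowest and Sham 5 the highest of all 12 libraries, and every MI library lay between them. The SD of log2 CPM was 0.11 in MI and 0.46 in Sham. MI minus Sham was -0.02 on the log2 scale (SE 0.17), with an edgeR adjusted p of 0.986. The sign was positive without MI 1 (0.01), MI 5 (0.0021), Sham 5 (0.12) or Sham 6 (0.03), and the value was -0.20 (p 0.0598, adjusted p 0.795) with the meningeal and dentate scores as covariates.

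Chrna4 (ENSMUSG00000027577, chromosome 2, 181018380 to 181043546, minus strand), the agonist-binding subunit of the common heteromeric receptor, was low in a pair of Sham libraries. It had 36.6 CPM at the lowest, 43.5 at the median and 54.7 at the highest in MI, against 22.8, 45.7 and 50.9 CPM in Sham. Sham 5 and Sham 6 lay below every MI library, while the other 4 Sham libraries lay within the MI range, and 2 of 6 MI libraries exceeded the Sham median. Its log2 fold change was 0.14 (SE 0.19), with an edgeR adjusted p of 0.906. Without Sham 5 it was 0.01 and without Sham 6 it was 0.05, whereas with the meningeal and dentate scores as covariates it was 0.35 (p 0.0308, adjusted p 0.788).

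Its partner Chrnb2 (ENSMUSG00000027950, chromosome 3, 89746195 to 89764632, minus strand) was the steadiest of the 8 genes. It had 74.5 CPM at the lowest, 78.2 at the median and 83.9 at the highest in MI, against 72.1, 77.7 and 81.0 CPM in Sham. The coefficient of variation was 4.66% in MI and 4.78% in Sham, and the highest library stood 1.16-fold above the lowest. The difference, MI minus Sham, was 0.03 on the log2 scale (SE 0.04), with a 95% interval from -0.07 to 0.13 and an edgeR adjusted p of 0.911. The counts of Chrnb2 are uncertain, since 1365 of its 8380 exon bases (16.3%) are shared with Adar on the opposite strand, an RNA-editing gene with 3654 to 6197 counts a library, and the sources used here do not say whether counting used strand.

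Because Chrnb2 was steady and Chrna4 was not, the ratio of their levels per kb differed between libraries. Chrna4 over Chrnb2 was 0.789 at the lowest, 0.931 at the median and 1.154 at the highest in MI, against 0.474, 1.01 and 1.07 in Sham. The lowest ratios belonged to Sham 5 (0.474) and Sham 6 (0.661), and the groups overlapped. Chrna7 over Chrnb2 ran from 0.519 to 0.667 in MI and from 0.362 to 0.839 in Sham, where Sham 1 was lowest and Sham 5 highest.

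Chrm1 (ENSMUSG00000032773, chromosome 19, 8663789 to 8683587, plus strand), the main muscarinic receptor of pyramidal neurons, was the most abundant of the 8 genes. It had 216.3 CPM at the lowest, 254.9 at the median and 302.7 at the highest in MI, against 175.7, 238.6 and 335.2 CPM in Sham. Sham 1 and Sham 4 lay below every MI library and Sham 5 above every one. Its log2 fold change was 0.06 (SE 0.15), with an edgeR adjusted p of 0.949, and it was -0.02 without Sham 1.

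Chrm3 (ENSMUSG00000046159, chromosome 13, 9875486 to 10360847, minus strand), the other Gq-coupled receptor of the set, varied as much in MI as in Sham. It had 48.1 CPM at the lowest, 69.3 at the median and 95.2 at the highest in MI, against 50.4, 61.6 and 92.6 CPM in Sham. MI 4 and Sham 5 stood high, each far above the rest of its group, and MI 1 and Sham 3 were the lowest. For Chrm3 the log2 fold change was 0.09 (SE 0.16), with an edgeR adjusted p of 0.937, and it was -0.03 without MI 4.

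Chrm2 (ENSMUSG00000045613, chromosome 6, 36388084 to 36528414, plus strand), a Gi/o-coupled receptor known in the hippocampus from interneurons and cholinergic terminals, had the lowest level per kb of the 8 genes. It had 10.7 CPM at the lowest, 13.5 at the median and 16.5 at the highest in MI, against 7.15, 11 and 16.7 CPM in Sham. Sham 6 and Sham 2 lay below every MI library, Sham 4 was the highest of all 12, and 5 of 6 MI libraries exceeded the Sham median. The log2 fold change was 0.21 (SE 0.19), with a 95% interval from -0.21 to 0.63 and an edgeR adjusted p of 0.840. It was 0.10 without Sham 6, 0.14 without MI 1 or Sham 2, and 0.34 without Sham 4.

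Chrm4 (ENSMUSG00000040495, chromosome 2, 91927249 to 91928688, plus strand), the second Gi/o-coupled receptor, differed between groups by less than its spread. It had 14.6 CPM at the lowest, 17.7 at the median and 18.8 at the highest in MI, against 10.1, 16.96 and 23.4 CPM in Sham. Sham 6 was the lowest and Sham 3 the highest of the 12 libraries, with every MI library between them. The log2 fold change was 0.03 (SE 0.15), with an edgeR adjusted p of 0.975, and it was -0.08 without Sham 6. GENCODE gives this gene 1 exon of 1440 bases, a coding length, while the RefSeq start window (chr2:91921939-91922238) lies upstream of that exon, so reads from other exons of the transcript may not be counted.

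**Figure D2:**
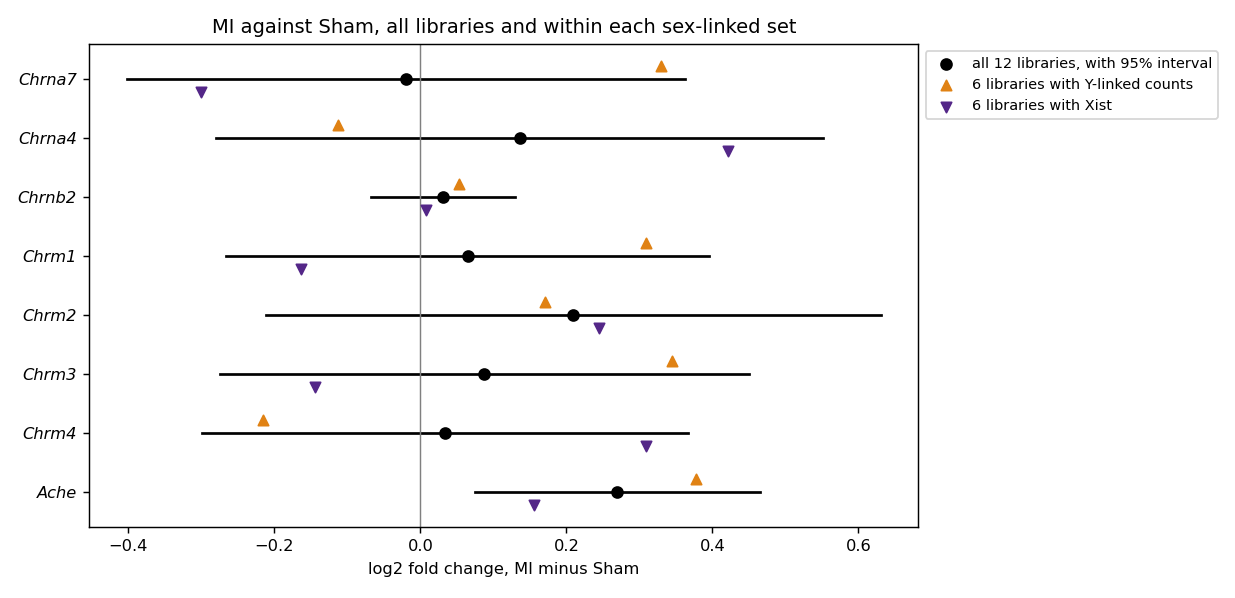
log2 fold change in MI minus Sham for each gene: black points and lines are the fit of all 12 libraries with its 95% interval, triangles the fits of 6 libraries each, split by Y-linked or Xist counts. Only the Ache interval (0.08 to 0.47) leaves out 0, and for Chrna7, Chrna4, Chrm1, Chrm3 and Chrm4 the split estimates lie on opposite sides of 0. How many of all genes tested do so was not counted. Of the 8, Chrna7 alone had an edgeR interaction p under 0.05 (adjusted p 0.593).

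The libraries fall into 2 sets by whether counts of Y-linked genes exceed those of Xist, with 3 MI and 3 Sham libraries in each; these are not groups of the study. MI 1, MI 3, MI 4, Sham 1, Sham 2 and Sham 3 held Y-linked counts. Within them the log2 fold changes were 0.38 for Ache, 0.33 for Chrna7, 0.34 for Chrm3, 0.31 for Chrm1, -0.11 for Chrna4 and -0.22 for Chrm4. Within the libraries with Xist they were 0.16, -0.30, -0.14, -0.16, 0.42 and 0.31 in the same order of genes. Chrna7 had the smallest interaction p, with 22.1 to 26.2 CPM in MI and 14.2 to 23.9 CPM in Sham where Y-linked genes were counted, and 22.6 to 26.7 CPM in MI and 25.0 to 36.2 CPM in Sham where Xist was. Its interaction was 0.64 (SE 0.25, edgeR p 0.0272, adjusted p 0.593). It was the 1 of 8 genes with an interaction p under 0.05, where 8.24% of all genes tested had one, and 0 of the 8 passed the adjusted threshold, as 0.0119% of all did. The Sham libraries that stood apart fell on either side of this split, Sham 1 with Y-linked counts and Sham 5 and Sham 6 with Xist, and their part in the interaction was not tested. Oligodendrocyte markers differed with the split in Sham. Their score was -0.65, -0.78 and -0.48 in Sham 1, Sham 2 and Sham 3, and 0.25, -0.05 and 0.02 in Sham 4, Sham 5 and Sham 6. In MI it ran from 0.12 to 0.45. Striatum markers also followed the split in Sham, with scores of 0.30 to 0.41 in Sham 1 to Sham 3 and -0.67 to 0.28 in Sham 4 to Sham 6. Thalamus and habenula markers did so too, with 0.14 to 0.20 and -0.37 to 0.07 in the same libraries. Among Sham libraries the split and the scores of these lists cannot be told apart.

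Levels can be compared between genes only per exon length. Chrm1 led with 38.9 ± 7.28 CPM per kb (SD over 12 libraries), above 94.0% of the genes tested. Ache followed with 14.7 ± 2.15, Chrm4 with 11.8 ± 2.15, Chrm3 with 10.7 ± 2.31, Chrnb2 with 9.28 ± 0.43, Chrna4 with 8.48 ± 1.86, Chrna7 with 5.49 ± 1.16 and Chrm2 with 2.08 ± 0.50 CPM per kb. Chrm1 stood 18.7-fold above Chrm2, the lowest.

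**Figure D3:**
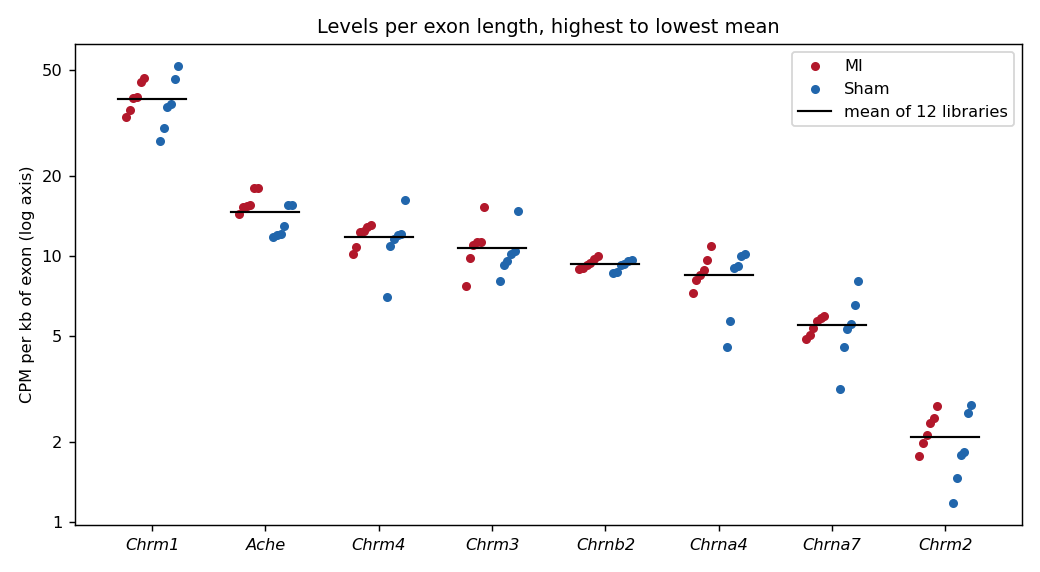
CPM per kb of exon on a log axis for each gene, with MI libraries in red, Sham libraries in blue and the mean of all 12 as a line. Chrm1 (mean 38.9) stands apart at the top and Chrm2 (mean 2.08) at the bottom, and the genes between overlap.

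Neighbours in this order were compared within libraries by an exact two-sided paired permutation test over all 4096 sign flips, adjusted over the 7 pairs. Chrm1 exceeded Ache in 12 of 12 libraries by 1.40 log2 units, and Chrna7 exceeded Chrm2 in 12 of 12 by 1.41 (exact permutation, adjusted p 0.00171 for both). Ache exceeded Chrm4 in 10 of 12 by 0.33 (exact permutation, adjusted p 0.00798), and Chrna4 exceeded Chrna7 in 10 of 12 by 0.62 (exact permutation, adjusted p 0.0162). With exon-union lengths the other 3 neighbouring pairs did not differ beyond their spread: Chrm4 over Chrm3 by 0.14 (exact permutation, adjusted p 0.331), Chrm3 over Chrnb2 by 0.18 (0.0875) and Chrnb2 over Chrna4 by 0.17 (0.167). With the longest transcript as the length, Chrm3 stood above Chrm4 by 0.39 log2 units (exact permutation, adjusted p 0.0234) and Chrna4 exceeded Chrna7 by 0.08 (0.674). With that length Chrm3 exceeded Chrnb2 by 0.32 (exact permutation, adjusted p 0.00547) and Chrnb2 exceeded Chrna4 by 0.42 (0.000854), so the middle of the order depends on the gene model. Chrm4 had the same 1440 bases, a coding length, in both settings, so neither could check its place against a longer gene model.

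Of the summed level of the 4 muscarinic genes, Chrm1 made up 58.4% at the lowest, 61.0% at the median and 63.7% at the highest in MI, against 53.1%, 60.0% and 71.1% in Sham. The Gq-coupled pair, Chrm1 and Chrm3, made up 73.1% to 83.8% in MI and 71.2% to 87.4% in Sham. Sham 1 had the lowest share and Sham 6 the highest, and the groups overlapped fully. No test is given for these shares, which rest on the 1440-base coding length of Chrm4.

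Correlations between the 8 genes ran in both directions. Of the 28 pairs, 17 had a positive correlation of log2 CPM over the 12 libraries once group means were subtracted. Of these 28 pairs, 3 passed an adjusted p under 0.05 for Pearson's r (permutation within groups, 100000 resamples, adjusted over the 28 pairs). Pairs of other genes were not counted in this way, so whether 3 of 28 is unusual in these libraries was not tested. Chrna4 ran against Chrm3, with r = -0.82 (permutation p 0.00013, adjusted p 0.00364) and rho = -0.87 (permutation p 0.00028, adjusted p 0.00784), and r was -0.82 without Sham 5 and Sham 6. Chrna4 also ran against Chrm1, with r = -0.87 (permutation p 0.00106, adjusted p 0.0148) and rho = -0.77 (permutation p 0.0132, adjusted p 0.0927), and r was -0.73 without those libraries. Chrna7 ran with Chrm1, with r = 0.83 (permutation p 0.00452, adjusted p 0.0422) and rho = 0.73 (permutation p 0.0261, adjusted p 0.114), and r was 0.60 without Sham 1 and Sham 5. Without Sham 1 and Sham 6 the last pair had r = 0.74 and was not called (permutation, adjusted p 0.293). The partner subunits Chrna4 and Chrnb2 had r = 0.04 and rho = 0.175 (permutation, adjusted p 0.923 and 0.746), and r was 0.09 without Sham 5 and Sham 6. Ache ran most closely with Chrnb2, with r = 0.67 and rho = 0.70 (permutation, adjusted p 0.142 and 0.114), and r was 0.57 without MI 3 and Sham 6.

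**Figure D4:**
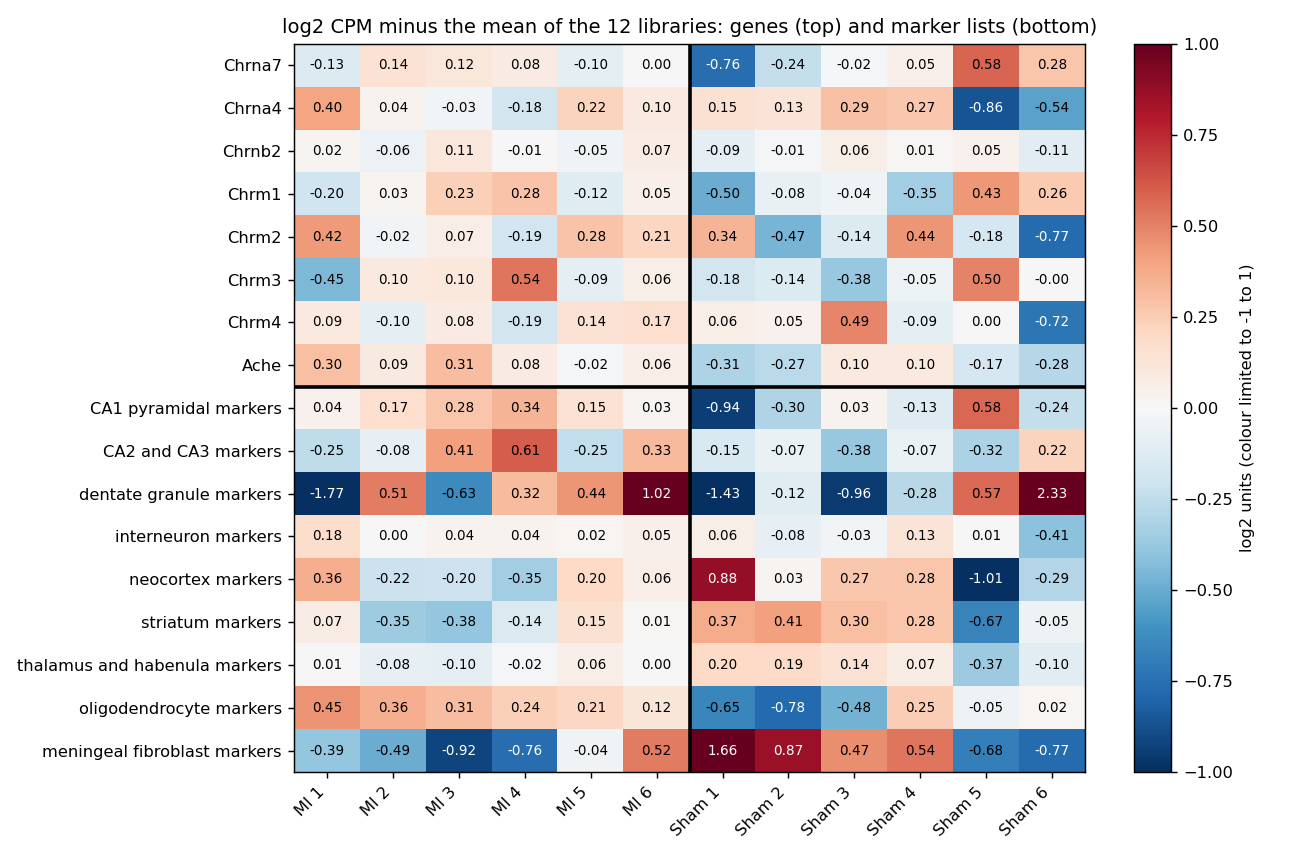
log2 CPM of each gene (upper rows) and the mean over each marker list (lower rows) minus the mean of the 12 libraries, with MI libraries left of the vertical line and Sham libraries right of it. Sham 5 is low in Chrna4 (-0.86) and in neocortex markers (-1.01) and high in Chrna7 (0.58) and CA1 markers (0.58), and Sham 1 shows the reverse for Chrna7 (-0.76) and CA1 markers (-0.94).

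In some libraries that stood apart, these genes and marker lists deviated together, and in others they did not. In Sham 5, Chrna7 stood 0.58, Chrm1 0.43 and Chrm3 0.50 log2 units above the mean of all libraries and Chrna4 stood at -0.86, where the score of CA1 markers was 0.58, that of neocortex markers -1.01 and that of striatum markers -0.67. In Sham 1, Chrna7 stood at -0.76, Chrm1 at -0.50 and Chrna4 at 0.15, where the CA1 score was -0.94, the neocortex score 0.88 and the meningeal score 1.66. In Sham 6, Chrna4 stood at -0.54, Chrm2 at -0.77 and Chrm4 at -0.72, where the dentate score was 2.33 and the interneuron score -0.41. There Chrna7 (0.28) and Chrm1 (0.26) stood above the mean with a CA1 score of -0.24. Chrm2 in Sham 2 (-0.47) and Chrm4 in Sham 3 (0.49) also lay far from the mean, at interneuron scores of -0.08 and -0.03. MI 4, high in Chrm3 (0.54), had the highest score of CA2 and CA3 markers (0.61), but in Sham 5, also high in Chrm3, that score was -0.32. Ache stood at -0.31 and -0.27 in Sham 1 and Sham 2, where oligodendrocyte scores were -0.65 and -0.78, but at 0.10 in Sham 3, where that score was -0.48, and at -0.28 in Sham 6, where it was 0.02. Oligodendrocyte markers summed to 4768 to 6032 CPM in MI and 2558 to 5256 CPM in Sham, with 8 of 8 positive in MI minus Sham. Meningeal markers, with 8 of 8 negative, summed to 103.0 to 203.7 CPM in MI and 75.2 to 389.5 CPM in Sham. Dentate markers were also negative in 8 of 8 (median -0.46), and CA1 markers (median 0.14) and CA2 and CA3 markers (median 0.26) were positive in 7 of 8 each. The part of any of these in the differences between libraries or groups was not tested.

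The spread of the 8 genes followed that of the whole table. The SD of log2 CPM was larger in Sham than in MI for 7 of the 8, all but Chrm3, and for 79.1% of 13590 genes with a mean of at least 50 counts. The median ratio of the Sham SD to the MI SD was 1.97 over the 8 genes and 1.505 over those 13590. The ratio was 4.02 for Chrna7, 2.75 for Chrm4, 2.41 for Chrna4 and 1.04 for Chrnb2.

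For each gene the most similar profiles were sought by Pearson's r over the 12 libraries, group means subtracted, among 13589 other genes with a mean of at least 50 counts; these are the top of a long ranking and carry no test. Nearest to Chrna7 were Pou3f1 (r = 0.98), a transcription factor on the CA1 marker list, and Fam13c (0.98). Nearest to Chrm1 were Wasf1 (0.99), which drives actin branching, and Por (0.98), the cytochrome P450 reductase. Nearest to Chrna4 were Grb7 (0.98) and Mypn (0.98), both at low level, with 2.98 and 2.35 CPM. Chrm3 was followed by Ap1ar (0.97) and the collagen gene Col11a1 (0.96), Chrm2 by Cldnd1 (0.96) and the kinase gene Lrrk2 (0.95), and Chrm4 by Nuak1 (0.93) and Gm9866 (0.91). Chrnb2 was followed by Msto1 (0.95) and Ddx24 (0.93), and Ache by Ebf4 (0.94) and Nacad (0.92).

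The presynaptic genes of the system were nearly absent from the tissue. Chat, which makes acetylcholine, had 0 to 8 counts a library, and Slc18a3, which loads it into vesicles, had 0 to 5, and neither passed the filter. Slc5a7, the choline transporter, had 15 to 41 counts, 0.974 ± 0.21 CPM in MI and 1.003 ± 0.22 CPM in Sham (SD, n = 6 each), with a log2 fold change of -0.05 (edgeR adjusted p 0.972). The summed CPM of 8 cholinergic neuron markers was 3.58 to 4.89 in MI and 2.504 to 4.53 in Sham, most of it Ngfr, a neurotrophin receptor gene, with 2.80 CPM in MI and 2.12 CPM in Sham on average. Lhx8 had 0 counts in 11 libraries and Isl1 in 10.

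The pathway was then read from lists of other genes, 51 in all, of which 41 were tested; 0 passed the adjusted threshold, and at an unadjusted p under 0.05 there were 2 higher in MI (3.95% of all genes tested) and 1 lower (3.59%). Their median log2 fold change was 0.01, against -0.01 over all genes tested. Those higher were Lynx1 and Prima1, and the lower one was Lypd1. Together they were 7.32% of the 41 tested, close to the 7.55% of all genes tested.

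Lynx1, a membrane-anchored protein that restrains nicotinic receptors, had 394.0 CPM at the lowest, 430.8 at the median and 483.7 at the highest in MI, against 310.7, 341.9 and 417.1 CPM in Sham. The ranges overlapped, and the log2 fold change was 0.31 (SE 0.08, edgeR p 0.00193, adjusted p 0.597). Lypd1, a relative of Lynx1 that also binds nicotinic receptors, had 40.1, 44.2 and 49.8 CPM in MI at the same points, against 46.5, 59.6 and 65.3 CPM in Sham. Its log2 fold change was -0.35 (SE 0.09, edgeR p 0.00125, adjusted p 0.597).

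Prima1, which anchors acetylcholinesterase in the membrane of neurons, had 1.86 CPM at the lowest, 2.36 at the median and 2.99 at the highest in MI, against 0.811, 1.63 and 2.62 CPM in Sham. The log2 fold change was 0.50 (SE 0.23, edgeR p 0.0432, adjusted p 0.645), on 22 to 74 counts a library. Bche, the related butyrylcholinesterase, had 7.41 ± 1.18 CPM in MI and 9.51 ± 3.27 CPM in Sham (SD, n = 6 each), with -0.35 (SE 0.19, edgeR p 0.0873). These log2 fold changes lay farther from 0 in the Y-linked set than in the Xist set: 0.99 and 0.14 for Prima1, 0.48 and 0.13 for Lynx1, -0.51 and -0.18 for Lypd1, and -0.68 and -0.01 for Bche. The interaction had an edgeR p of 0.0422, 0.0231, 0.0451 and 0.0837 in the same order of genes, with adjusted p from 0.580 to 0.628. Of the 41 pathway genes tested, 6 (14.6%) had an interaction p under 0.05, where 8.24% of all genes did: Prima1, Lynx1, Lypd1, Chrnb1, Tmem35a and Gna14. More was called in the Y-linked set over the whole table too, with 211 genes past the adjusted threshold there and 0 in the Xist set (edgeR). The Sham libraries of the Y-linked set also had the lowest oligodendrocyte scores and the highest striatum and thalamus scores. The part of tissue content in these values was not tested. Colq, the collagen tail of the esterase at muscle synapses, had 5 to 13 counts and was not tested.

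Of 13 other nicotinic subunits, 6 were tested, 4 positive and 2 negative, with 0 under p 0.05. Chrna5, an accessory subunit that joins Chrna4 and Chrnb2, was the most abundant of them per kb, with 11.8 ± 2.20 CPM in MI and 8.33 ± 3.17 CPM in Sham (SD, n = 6 each); its log2 fold change was 0.49 (SE 0.25, edgeR p 0.0740, adjusted p 0.690). Split by sex-linked counts it was 0.92 in the Y-linked set and 0.16 in the Xist set (interaction, edgeR p 0.123, adjusted p 0.661). Chrnb1 (-0.11) and Chrna2 (0.27) followed in level. Chrm5, the remaining muscarinic receptor, had 14 to 137 counts, with 1.62 to 3.33 CPM in MI and 0.658 to 4.91 CPM in Sham, and -0.32 (SE 0.35, edgeR adjusted p 0.883).

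The receptor chaperones and modulators numbered 9, with 5 positive and 4 negative. Beside Lynx1 and Lypd1, the most abundant were Ly6h at -0.13 (SE 0.13) and Tmem35a, the chaperone of Chrna7 receptors known as NACHO, at -0.16 (SE 0.13). Downstream of the muscarinic receptors, 11 Gq signalling genes had a median of 0.01, among them the G protein gene Gnaq at 0.01 and the calcium release channel gene Itpr1 at 0.10. The 11 Gi/o signalling genes had a median of -0.01, among them Gnao1 at 0.06, Gnai1 at 0.05 and the adenylyl cyclase gene Adcy1 at -0.02. In both lists 0 genes had an unadjusted p under 0.05.

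The authors' deposited tables hold 542 genes higher in MI and 517 lower, 6.29% when set against the genes tested here, and 2 of the 8 genes are among them. For Chrna4 the authors' deposited table of higher genes gives a log2 fold change of 0.30 and an adjusted p of 0.0290. For Chrna7 the authors' deposited table of lower genes gives -0.18 and an adjusted p of 0.00713. From the counts, Chrna4 had 0.14 (SE 0.19) and Chrna7 -0.02 (SE 0.17) without covariates. With the meningeal and dentate scores as covariates they had 0.35 (SE 0.14, edgeR p 0.0308, adjusted p 0.788) and -0.20 (SE 0.10, edgeR p 0.0598, adjusted p 0.795).

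**Figure D5:**
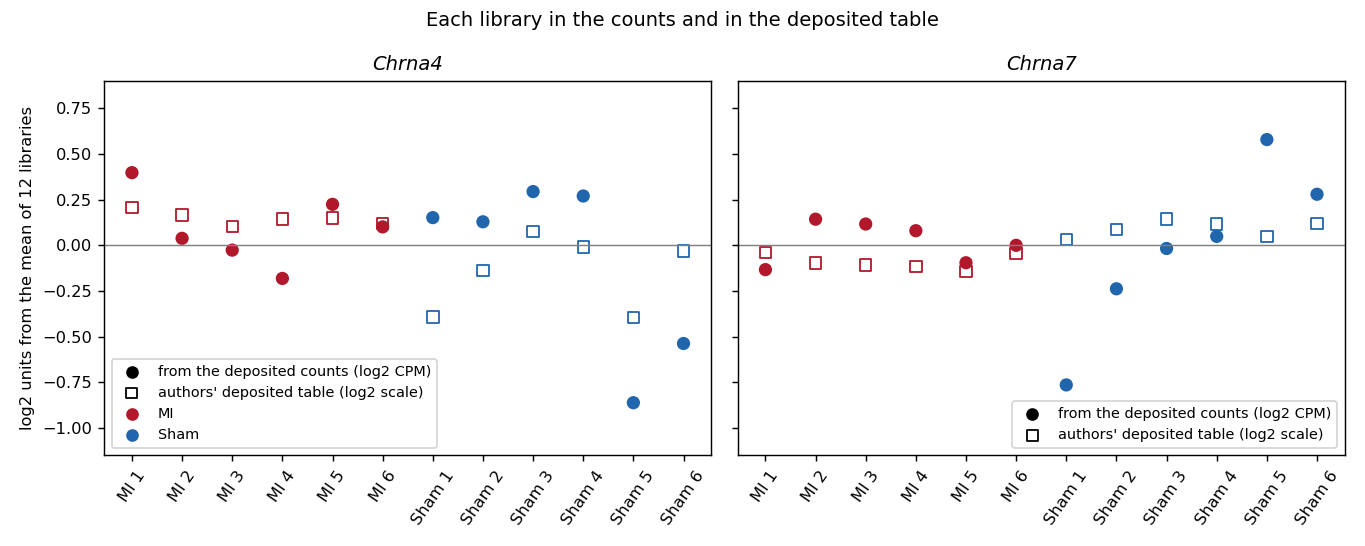
Chrna4 and Chrna7 in each library, as log2 units from the mean of the 12 libraries, from the counts (filled circles) and in the authors' deposited tables (open squares), with MI in red and Sham in blue. For Chrna7 the Sham libraries span 1.34 log2 units in the counts and 0.11 in the deposited values, where every MI library lies below every Sham library.

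For Chrna7 and Chrna4 the deposited values spread less between libraries than log2 CPM does in both groups. For Chrna7 the 6 MI libraries span 0.10 log2 units in the authors' deposited table and 0.28 in log2 CPM, and the 6 Sham libraries 0.11 and 1.34. For Chrna4 the MI libraries span 0.10 in the authors' deposited table and 0.58 in log2 CPM, and the Sham libraries 0.47 and 1.16. That was not so of every listed gene, since the MI libraries of Lypd1 span 0.39 in the authors' deposited table and 0.31 in log2 CPM. Sham 1 and Sham 5, the lowest and highest for Chrna7 in the counts, stand at 9.83 and 9.85 in the authors' deposited table, where MI libraries run from 9.65 to 9.76. The sources used here do not say how the deposited values were made. With 2 surrogate variables as covariates, an alternative chosen after seeing the data, the fit of the counts gave 0.32 (edgeR p 0.0127, adjusted p 0.407) for Chrna4 and -0.10 (p 0.252, adjusted p 0.696) for Chrna7. The planned fit with 1 surrogate variable gave 0.19 for Chrna4 (edgeR adjusted p 0.849) and -0.03 for Chrna7 (0.981). With limma-voom and sample weights the values were -0.0035 for Chrna4 and 0.0539 for Chrna7. The cause of the difference between the counts and the deposited values was not tested. Of the pathway genes, the authors' deposited table of higher genes holds Lynx1 (0.22) and Plcb4 (0.33), a phospholipase C, and that of lower genes holds Lypd1 (-0.28), Chrm5 (-0.25) and Ly6h (-0.16).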

How the data were processed

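Polyadenylated RNA of CA1 tissue was read from 1 end for 50 bases, per the labels' protocols. The submitters' processing notes name FastQC 0.11.5, STAR 2.5.2b, featureCounts, Subread 1.5.1 and the mm10 build, without order or settings. The deposited read counts per Ensembl gene are whole numbers, not normalized. The authors' deposited tables give log2 fold changes, adjusted p-values and log2-scale values per library.

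Symbols, coordinates and exon lengths came from GENCODE M21 (mm10), which held 48349 of the 48709 IDs. Genes were filtered by filterByExpr, scaled by TMM and tested in edgeR 4.0.16 (R 4.3.3) by the robust quasi-likelihood F test, MI minus Sham, two-sided, without covariates, with Benjamini-Hochberg adjustment over all genes and a threshold of 0.05. The 95% intervals use a t quantile on the residual degrees of freedom, and log2 CPM a prior count of 2. The procedure was tested on simulated data. Depth of 20764133 to 35643127 counts gave each of the 8 genes 152 to 11377 counts a library. Library pairs within a group differed by 6.22 to 78.2 chi-square units per degree of freedom, so none was a duplicate. Alternatives used DESeq2 1.42.0, limma 3.58.1, sva 3.50.0, other scalings, filters and covariates, and left out libraries. The named genes are the 8, the pathway genes with an unadjusted p under 0.05 or among the 3 most abundant per kb of their list, lists of 3 or fewer, and the 2 most similar profiles per gene; any other gene was picked with its values in view. A gene that this rule names is not reported here. The genes and lists were chosen with earlier results of these data known.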

Additional observations from a re-analysis of the deposited data

Results flagged for a closer look

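Chrm3 in Sham 5 stood apart from the other Sham libraries. Its 92.6 CPM lay above the next highest Sham library, at 65.4 CPM, by a gap of 0.643 of the whole Sham range, past Dixon's 95% critical value for 6 samples. Each of the 8 genes was checked in both groups, 16 checks in all, and chance alone flags about 1 in 20. In Sham 5 the score of CA1 pyramidal markers was the highest (0.58) and that of neocortex markers the lowest (-1.01) of the 12 libraries. The part of these in the Chrm3 value was not tested.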

How the results depend on the processing

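In 27 alternatives to the fit of MI against Sham, 0 of the 8 genes were called. The count of genes called over the whole table was 11 with DESeq2 and 211 in the 6 Y-linked libraries alone, and 0 in the other 25. With the meningeal and dentate scores as covariates, 3 of the 8 genes (Ache, Chrna4 and Chrm2) had an unadjusted p under 0.05, against 1 in the fit without them. Each of the 3 had an edgeR adjusted p of 0.788 with these covariates. The share of all genes under that unadjusted p was not counted in this fit, so whether 3 of 8 is unusual there was not tested. Ache and Chrm2 kept their sign in all 27. Sign changes of the log2 fold change were as follows, and their cause was not tested. For Chrna7 it was 0.0539 with limma-voom and sample weights, 0.0092 with the sex-linked set as a covariate and 0.33 in the Y-linked libraries alone, and it ran from -0.14 to 0.12 when single libraries were left out. For Chrna4 it was -0.0035 with limma-voom and -0.11 in the Y-linked libraries alone. For Chrnb2 it was -0.0098 without Sham 1 and Sham 6. For Chrm1 it was -0.0871 with the meningeal and dentate scores as covariates, -0.16 in the libraries with Xist alone and -0.0123 with 2 surrogate variables, and from -0.0171 to 0.17 without single libraries. For Chrm3 it was -0.0145 with those scores and -0.14 in the libraries with Xist alone, and from -0.0255 to 0.22 without single libraries. For Chrm4 it was -0.0443 with limma-voom, -0.087 without Sham 1 and Sham 6 and -0.22 in the Y-linked libraries alone, and from -0.0765 to 0.15 without single libraries. Without single libraries, Ache ran from 0.23 to 0.32, Chrm2 from 0.10 to 0.34, Chrna4 from 0.01 to 0.21 and Chrnb2 from 0.01 to 0.05.

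With the replicate number as a block, Chrna7 had 0.0297 and Ache 0.28 (edgeR adjusted p 0.741), and 0 genes were called. Whether the numbers pair the libraries was not settled. Same-numbered deviations from the group means correlated between -0.49 and 0.53, and 3 of 6 MI libraries correlated best with their own number, without a test. Of the 7 neighbouring pairs of levels, 4 were separated over 12 libraries and 5 in that direction with the longest transcript length, where Chrm4 over Chrm3 was -0.39. In MI libraries alone and in Sham libraries alone 0 were, and with 6 libraries the smallest p before adjustment is 0.0312 (exact permutation). Of 28 correlations, 3 were called, 2 with group means kept (Chrna4 with Chrm3 then had r = -0.74) and 2 without Sham 1 and Sham 6. Chat, Slc18a3, Colq and 7 nicotinic subunits had too few counts to pass the filter, so MI against Sham was not tested for them.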
